A study of Mus musculus with 3 samples.

Results

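Chemokines are small secreted proteins that draw leukocytes along a gradient by binding G protein-coupled receptors. The 8 chemokine genes described in activated regulatory T cells, of 55536 mouse genes measured, are Ccl1, Ccl3, Ccl4, Ccl5, Ccl20, Ccl22, Cxcl10 and Xcl1. They were picked by name, not by their values here, although earlier results on these libraries were known when they were listed. Regulatory T cells are CD4 T cells that depend on the transcription factor Foxp3 and hold other immune cells in check. In T cells and other leukocytes Ccl3, Ccl4, Ccl5 and Xcl1 are best known as products of cytotoxic and effector lymphocytes, Ccl1 as a product of helper T cells, and Ccl22 as a product of dendritic cells that attracts regulatory T cells. Cxcl10 is induced by interferon, and Ccl20 is known from epithelium and from T helper cells of the Th17 type.

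The series holds 3 polyA RNA-seq libraries of activated regulatory T cells, all from 1 male mouse aged 4 months of the strain Foxp3CreERT2 x Rosa26YFP. The first allele places a tamoxifen-inducible Cre recombinase at Foxp3 and the second is a YFP reporter at Rosa26. The labels number them as technical replicates of a single biological replicate and give the source as primary cells derived from bone marrow haematopoietic cells. All 3 form 1 group without a control, so no condition can be compared. The sources used here name neither the sorting gate nor the way the cells were activated. Each SD below is the spread between these 3 libraries, which may be technical, and says nothing of the spread between animals.

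Depth was 10981924, 9700630 and 6667391 expected counts over mouse genes in replicates 1, 2 and 3. Replicate 3 stood apart from the others: a chi-square test of each pair of libraries over genes gave a statistic of 30.7 per degree of freedom for replicates 1 and 3 and 30.3 for replicates 2 and 3, but 11.4 for replicates 1 and 2. The T cell markers Trac, Lck, Cd3g, Cd3e, Cd3d and Cd4 summed to 7890.4, 7849.7 and 5027 TPM (a level corrected for transcript length and depth) in replicates 1, 2 and 3. The Treg markers Tnfrsf18, Ikzf2, Ctla4, Il2ra, Ikzf4 and Foxp3 summed to 1565, 1680 and 1612 TPM, and all of both lists were detected in all 3 libraries. Within the Treg list Ctla4 was at 190, 250 and 612 TPM and Foxp3 at 29.5, 28.7 and 49.8 TPM, both highest in replicate 3. Tnfrsf18, Ikzf2, Il2ra and Ikzf4 were all lowest there, with Tnfrsf18 at 663, 587 and 368 TPM. The 7 B cell markers summed to 1790, 1478 and 3111 TPM and the 5 erythroid markers to 795, 5.30 and 23.4 TPM. In bulk RNA, fewer cells that make a transcript and less transcript per cell cannot be told apart.

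The family is divided by the spacing of the first cysteines of the mature protein, and the 8 genes cover 3 of its classes. The coding stretch around those cysteines is shown for 7 of the genes in the M21 annotation, from the transcript with the highest mean share in the main table, 5′ to 3′, with the cysteine codons in capitals, to show how the classes differ. The first 24 codons, where the signal peptide lies, were passed over in the search.
Ccl1: gtctccaatagcTGCTGCttgaacaccttg
Ccl4: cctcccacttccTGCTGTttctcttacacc
Ccl5: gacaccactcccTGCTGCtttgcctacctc
Ccl20: agcaactacgacTGTTGCctctcgtacata
Ccl22: gaagacagtatcTGCTGCcaggactacatc
Cxcl10: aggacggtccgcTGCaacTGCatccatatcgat
Xcl1: gaagagagtagcTGTgtgaacttacaa
The Ccl genes carry adjacent cysteine codons, starting between codon 32 in Ccl20 and codon 36 in Ccl22. Cxcl10 has 1 codon between its cysteine codons, which start at codon 30. Xcl1 has a single cysteine codon there, at codon 32, and 2 cysteine codons in all after codon 24, against 4 to 6 in the other genes. All are short genes, with coding sequences of 273 bases in Ccl5 to 342 bases in Xcl1. Ccl3 and Ccl4 shared 192 of 270 aligned coding bases (71.1%), and identity over all pairs lay between 56.5% and 71.3%, so no 2 of the 8 are near-identical copies.

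Ccl5, Ccl3 and Ccl4 lie close together on mm10 chromosome 11, Ccl5 from 83525778 to 83530518, Ccl3 from 83647844 to 83649355 and Ccl4 from 83662584 to 83664683. Ccl1 is on the same chromosome, from 82176657 to 82305690, a span set by 1 long noncoding transcript, Ccl1-203, that had 0 counts in all 3 libraries in both transcript tables. Xcl1 is on chromosome 1 from 164931644 to 164935527 and Ccl20 on chromosome 1 from 83116766 to 83119167. Cxcl10 is on chromosome 5 from 92346638 to 92348889, and Ccl22 on chromosome 8 from 94745590 to 94751699. Exons of Cxcl10 overlap those of Art3 on the opposite strand, and exons of Xcl1 overlap those of the noncoding gene Gm20743. The sources used here do not say whether counting used the strand, so reads of these overlaps cannot be told apart. Art3 had 39, 23.0 and 0 expected counts in replicates 1, 2 and 3, and Gm20743 had 1 in each.

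Ccl5 was by far the most abundant of the chemokines, and Ccl22 was at the limit of detection. The mean level of the others lay between 2.15 and 22.02 TPM. Detection was set above 3 expected counts, about the one-sided 95% upper limit for a count of 0. Of the 8 genes, 5 exceeded this floor in all 3 libraries: Ccl5, Ccl4, Ccl1, Cxcl10 and Ccl3. Among all protein-coding genes, 50.2% did so. Xcl1 joined these 5 when the criterion was 1 TPM or more in each library, which 6 of the 8 and 45.3% of protein-coding genes met. The median of the 8 mean levels was 9.80 TPM, and the median over all protein-coding genes was 0.643 TPM.

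**Figure D1:**
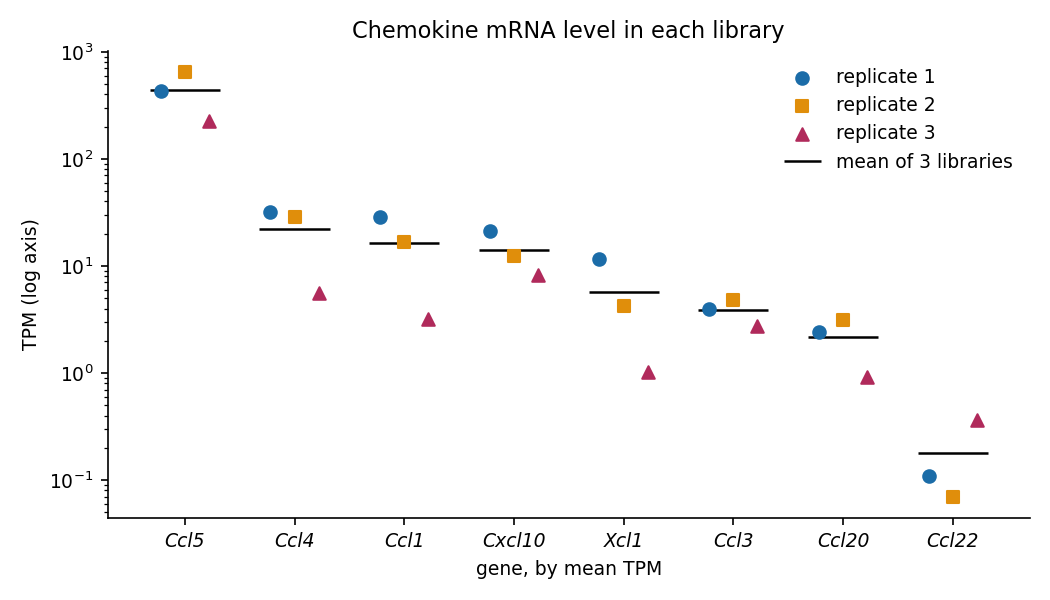
TPM of each chemokine gene on a log axis, with genes ordered by mean TPM, a symbol for each of the 3 libraries and a bar at their mean. Ccl5 stands between 228 and 648 TPM, above every other gene, and replicate 3 is the lowest library for every gene except Ccl22.

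Among the inflammatory chemokines, Ccl5 (RANTES), which binds Ccr1 and Ccr3, had 432, 648 and 228 TPM in replicates 1, 2 and 3, from 1370, 1722 and 455 expected counts. Replicate 2 was highest and replicate 3 lowest. The mean was 436 ± 209.8 TPM (SD, n = 3), which placed Ccl5 at rank 279 of 22028 protein-coding genes. Ccl5 took 81.2%, 90.3% and 91.2% of the summed TPM of the 8 chemokines in replicates 1, 2 and 3. The sum of the other 7 was 100.2, 69.9 and 22 TPM, and the sum of all 8 was 532, 718 and 250.1 TPM. Ccl5 was highest of the 8 in every library and in each of the 3 deposited quantifications.

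Ccl4 (MIP-1 beta), an attractant of T cells and monocytes, had 31.8, 28.7 and 5.58 TPM, from 137, 103 and 15 counts. Replicates 1 and 2 were close and replicate 3 was low. The mean was 22.02 ± 14.3 TPM (SD, n = 3), or 30.2 TPM without replicate 3. Ccl3 (MIP-1 alpha), which binds Ccr1, had 3.99, 4.81 and 2.76 TPM, from 21, 21 and 9 counts. Its libraries lay close together, at a mean of 3.85 ± 1.03 TPM. Although the genes of Ccl3 and Ccl4 are neighbours and often induced together in activated lymphocytes, Ccl4 was above Ccl3 in all 3 libraries.

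Ccl1, a ligand of Ccr8, had 28.9, 16.6 and 3.17 TPM, from 89, 43 and 6 counts in replicates 1, 2 and 3. No library was near another. The mean of 16.2 ± 12.9 TPM (SD, n = 3) became 9.88 TPM without replicate 1. Xcl1 (lymphotactin), which binds Xcr1 on cross-presenting dendritic cells, had 11.7, 4.26 and 1.03 TPM, from 36, 11 and 2 counts. Replicate 3 was under the floor of 3 counts, so Xcl1 was not detectable there. Its mean of 5.65 ± 5.46 TPM became 2.65 TPM without replicate 1.

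Cxcl10 (IP-10), a ligand of Cxcr3, had 21.3, 12.4 and 8.19 TPM, from 172, 85.0 and 46 counts in replicates 1, 2 and 3. Replicate 1 was highest, and the mean was 13.9 ± 6.68 TPM (SD, n = 3). Ccl20, the ligand of Ccr6, had 2.43, 3.11 and 0.910 TPM, from 13, 15 and 3 counts. It was above the floor in replicates 1 and 2 and at the floor in replicate 3, with a mean of 2.15 ± 1.13 TPM. Ccl22, a ligand of Ccr4, had 0.110, 0.0700 and 0.360 TPM, from 2, 1 and 4 counts. With exact 95% Poisson intervals of 0.242 to 7.22, 0.0253 to 5.57 and 1.09 to 10.2 counts, these values are not separable from each other, and without replicate 3 the mean of 0.180 ± 0.157 TPM became 0.0900 TPM.

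By mean TPM the order was Ccl5, Ccl4, Ccl1, Cxcl10, Xcl1, Ccl3, Ccl20 and Ccl22. Only at the ends of this order did the ranges over libraries separate: Ccl5 was above Ccl4 by 19.8 times in mean TPM, and Ccl20 above Ccl22 by 11.9 times. The ranges of all 5 neighbouring pairs in between overlapped, although Ccl4 exceeded Ccl1, Cxcl10 exceeded Xcl1 and Ccl3 exceeded Ccl20 in each of the 3 libraries. Ccl1 exceeded Cxcl10 in 2 libraries, and Xcl1 exceeded Ccl3 in 1 library. Without replicate 1 both of these pairs changed places.

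Most of these genes differed between libraries by more than counting error, and in the same direction. Of the 7 genes with a mean of at least 10 expected counts, 5 varied beyond sampling noise: Ccl5, Ccl4, Ccl1, Cxcl10 and Xcl1. The test was a chi-square test over the 3 libraries, called at 0.05 after Benjamini-Hochberg adjustment over all 12997 genes that could be tested. Among those 65.4% varied, so the share of chemokines was near the background. Replicate 3 had the lowest scaled count for all 7, a count made after the values were seen, against 45.8% of all tested genes. The same 5 genes both varied and were lowest in replicate 3, against 32.6% of all tested genes. Ccl22, which was not tested, had its highest value there.

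The size of these differences ranged widely. For each gene the library with the highest scaled count was set against the lowest of the 3. The intervals below do not allow for that choice, so 1 that leaves out 1 is not a test over the 3 libraries. Scaled for library size, Xcl1 was 11.6-fold higher in replicate 1 than in replicate 3, with an exact 95% binomial interval of 3.00 to 99.8 that covers counting error only and rests on 2 counts in replicate 3. Ccl1 was 9.60-fold higher in replicate 1 than in replicate 3 (interval 4.24 to 26.8) and Ccl4 5.91-fold (3.46 to 10.8). Cxcl10 was 2.42-fold higher in replicate 1 than in replicate 3 (1.74 to 3.43). Ccl5 was 2.72-fold higher in replicate 2 than in replicate 3, and its interval of 2.45 to 3.03 was the narrowest because its counts were the highest. For Ccl3 the interval of 0.737 to 4.16 included 1, around a 1.68-fold difference between replicates 2 and 3. Ccl20 differed 3.60-fold between the same libraries, with an interval of 1.02 to 19.4 on 3 counts in replicate 3.

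By the chi-square test the adjusted p was 2.92e-85 for Ccl5, 1.33e-11 for Ccl4, 3.17e-10 for Ccl1, 7.29e-09 for Cxcl10 and 8.63e-06 for Xcl1, and it was 0.137 for Ccl20 and 0.470 for Ccl3. These calls are against sampling noise alone. When the trended dispersion of edgeR, estimated from the same libraries, was added to the variance, 0 of the 7 genes varied at an adjusted p below 0.05 and 4 had an unadjusted p below 0.05, namely Ccl5, Ccl1, Ccl4 and Xcl1. Among all tested genes 1.08% and 5.09% did so. Without replicate 3, the call for Ccl4 was lost, with an adjusted chi-square p of 0.278, and without replicate 1 that for Cxcl10, at 0.184, while Xcl1 then had too few counts to be tested.

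On the log2 scale, with 1 added to each scaled count, the difference of replicate 3 from the mean of replicates 1 and 2 had a median of -1.46 over the 7 tested chemokines and of -0.08 over all tested genes. Ccl1, Xcl1 and Ccl4 were at -2.73, -2.57 and -2.38, and Ccl5 at -1.22. Of all tested genes, 5% lay below -1.24. The difference of replicate 2 from replicate 1 ranged from -1.47 in Xcl1 to 0.48 in Ccl5, with a median of -0.26 over the chemokines. The T cell marker sum was lower in replicate 3 by the values given above, and its part in these differences was not tested.

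**Figure D2:**
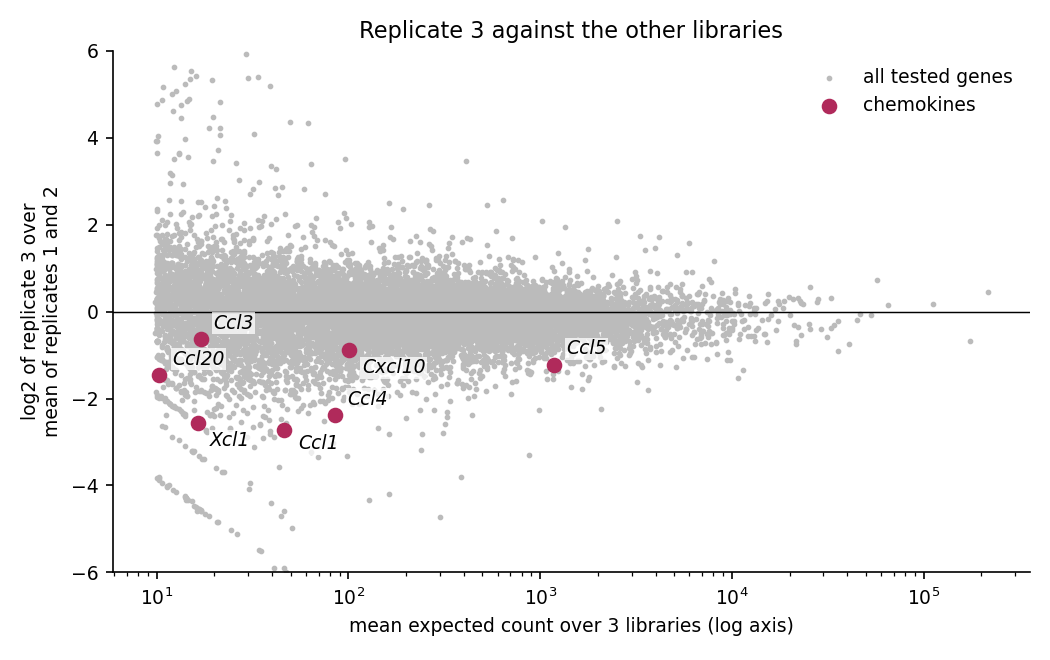
Log2 of the scaled count in replicate 3 over the mean of replicates 1 and 2, against the mean expected count on a log axis, with all 12997 tested genes in grey and the 7 tested chemokines in red. All 7 lie below 0, from -0.63 for Ccl3 to -2.73 for Ccl1; 7 tested genes lie outside the plotted range.

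Markers of other cell types, some of which make these chemokines, were read in the same libraries. The 5 CD8 T cell markers summed to 27.7, 27.1 and 28.8 TPM in replicates 1, 2 and 3, highest in replicate 3. Within that list Cd8a was at 2.13, 1.17 and 0.660 TPM, Cd8b1 at 14.1, 13.8 and 12.3 TPM and Prf1 at 5.28, 6.98 and 4.24 TPM, all lowest in replicate 3. Gzma was at 5.27, 4.82 and 9.57 TPM and Gzmk at 0.920, 0.360 and 2.04 TPM, both highest there. The 7 NK or innate lymphoid cell markers summed to 10.6, 4.89 and 9 TPM, with 4 of 7 detected in all 3 libraries and the lowest sum in replicate 2. Tyrobp, the most abundant of them, had 6.37, 2.24 and 6.93 TPM, and Klrk1 had 0.92, 1.09 and 0.95 TPM. Ncr1, which defines NK cells, had 0, 0 and 0.140 TPM, and Klrb1c had 2.97, 1 and 0.550 TPM. The 10 myeloid markers summed to 49.5, 48.6 and 64.2 TPM. The most abundant of them differed in pattern: Ly6c2 had 22.8, 38.7 and 36.4 TPM, lowest in replicate 1, and Lyz2 had 17.7, 2.38 and 15.7 TPM, lowest in replicate 2. The 9 dendritic cell markers summed to 208, 221 and 340.5 TPM, nearly all from Ccr7, a gene that T cells also express; Clec9a was at 0 in all libraries and Itgax at 0, 0 and 0.230 TPM. Mast cell or basophil markers summed to 3.24, 1.52 and 6.2 TPM, nearly all from Kit, with Mcpt8, Cpa3 and Fcer1a at 0, and platelet markers to 1.22, 0.890 and 1.95 TPM. Plasma cell markers summed to 108, 69.7 and 172 TPM, and stromal, endothelial or epithelial markers to 1.93, 2.53 and 2.32 TPM. The part of RNA from such cells in the chemokine levels was not tested.

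Chemokine genes outside the list were mostly silent. Of 30 other chemokine genes, 3 were above 3 expected counts in all 3 libraries, against 5 of the 8 named genes, and 23 were at or below 3 counts in every library. Of all 22028 protein-coding genes, 50.2% were above 3 counts in all 3 libraries and 9050 were at or below 3 counts in every library. Of these 22028, 5245 had 0 counts in all libraries. Ccl25, best known from thymus and small intestine as the ligand of Ccr9, had 8.46, 9.69 and 7.83 TPM and lay close together in all libraries. Ccl27a, a skin chemokine with near-identical copies in the mouse genome that make its level uncertain, had 6.77, 3.01 and 11.0 TPM. Ccl8 had 2.01, 3.60 and 2.13 TPM. None of the 2 that could be tested, Ccl25 and Ccl27a, varied at an adjusted chi-square p below 0.05, with 0.847 and 0.169, and by the trended edgeR model none had an unadjusted p below 0.05. Named after their values were seen, Ccl2, Ccl11, Ccl26, Cxcl2, Cxcl3, Cxcl5, Cxcl14, Cxcl15 and Cx3cl1 had 0 counts in all libraries. At the one-sided 95% limit that allows up to 3 counts in each. Cxcl9 and Cxcl11, which share Cxcr3 with Cxcl10 and were also named after their values were seen, had 4, 0 and 12 and 3, 3 and 4 counts. Cxcl11 is not classed as protein-coding in the M21 annotation used here. The 8 named genes made up 96.0%, 97.5% and 89.4% of the summed TPM of all 38 chemokine genes in replicates 1, 2 and 3. Most of this was Ccl5, at 81.2%, 90.3% and 91.2% of the sum of the 8. In replicate 3 the named genes other than Ccl5 summed to 22 TPM. All 8 had 250.1 TPM there and all 38 had 279.8 TPM, so the 30 other genes together exceeded the named genes without Ccl5.

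**Figure D3:**
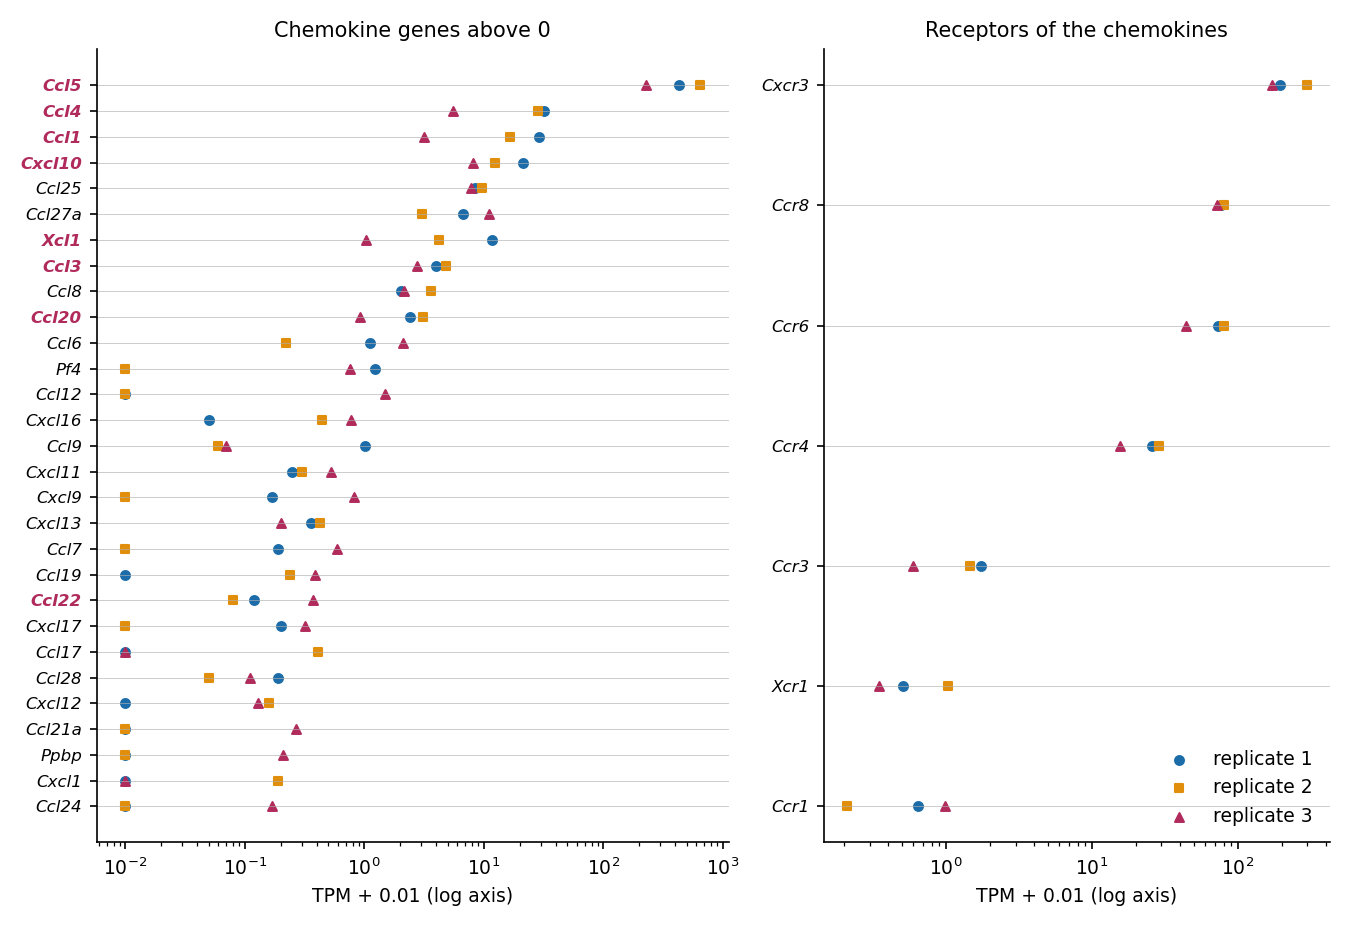
TPM plus 0.01 on log axes for each library, at left for the chemokine genes with a value above 0, with the 8 named genes in bold red, and at right for 7 receptors of those chemokines. By mean TPM the 4 highest chemokine genes are Ccl5, Ccl4, Ccl1 and Cxcl10, while in replicate 3 Ccl27a, at 11.0 TPM, is above all but Ccl5; the highest receptor plotted is Cxcr3, between 170.5 and 297 TPM.

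Receptors for the same chemokines were measured in the same RNA. Cxcr3 was at 221 ± 66.9 TPM (SD, n = 3), Ccr8 at 76.0 ± 4.15 TPM and Ccr6 at 66.0 ± 19.4 TPM, followed by Ccr4 at 23.5 ± 7.08 TPM. Ccr3, Xcr1 and Ccr1 were at 1.26 ± 0.594, 0.620 ± 0.356 and 0.600 ± 0.386 TPM, and the level of Xcr1 was at most 1.02 TPM in any library. Ccr8 had 76.3, 80.03 and 71.7 TPM in replicates 1, 2 and 3, and its adjusted chi-square p was 0.253, while its ligand Ccl1 had 28.9, 16.6 and 3.17 TPM in those libraries, a contrast that was not tested as a difference. The other 6 of these 7 receptors varied beyond sampling noise, against 65.4% of all tested genes, a background not matched for count. Under the trended edgeR model 0 of the 7 did, with 0 at an unadjusted p below 0.05, against 1.08% and 5.09% of all tested genes. Of the atypical or putative receptors, Ccrl2 was at 11.8 ± 2.43 TPM, and Ackr1, Gpr75 and Ackr2 were at or below 3 counts in every library.

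Transcript estimates divided the genes into simple and uncertain cases. Ccl3, Ccl4 and Xcl1 have a single annotated transcript. The spliced transcript Ccl5-201 took 99.5%, 99.2% and 99.7% of Ccl5 in replicates 1, 2 and 3, and the retained-intron transcript Ccl5-202 took 0.460%, 0.790% and 0.350%. For Ccl1, Ccl1-202 took 91.2%, 89.8% and 100%. Cxcl10-201 took 94.1%, 87.0% and 90.6% of Cxcl10, and the retained-intron transcript Cxcl10-204 took 0.560%, 3.00% and 9.36%. Ccl20 had no stable leading transcript: Ccl20-203 took 76.7%, 0% and 100%, on 13, 15 and 3 counts for the whole gene, and in the second quantification 100%, 0% and 0%. The split between Ccl20-202 and Ccl20-203 is therefore not resolved at this depth.

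Levels depended on the quantification. Ccl5 was at 301 ± 140.3 TPM (SD, n = 3) in the second quantification and at 743 ± 320.2 TPM when M4 counts were divided by coding length. Ccl4 was at 13.4 and 40.4 TPM in these, Ccl1 at 11.8 and 24.3 TPM, and Cxcl10 at 7.77 and 21.1 TPM. For Xcl1 the values were 4.64 and 9.76 TPM, for Ccl3 2.29 and 5.98 TPM, for Ccl20 1.29 and 3.27 TPM, and for Ccl22 0.142 and 0.356 TPM. Each of the 8 was thus below its main level in the second quantification and above it in the M4 values. The M4 values are per coding base, so a higher level there need not mean more counts. Cxcl10 had 102, 60 and 20 M4 counts in replicates 1, 2 and 3, against 172, 85.0 and 46 main counts. Summed over libraries, Ccl3 and Ccl22 also had fewer M4 than main counts, and the rest had more. The order of the 8 by mean level was the same in all 3 quantifications. The main table held 62.8% as many counts of Ccl5 as the second, 57.5% for Ccl1 and 52.1% for Xcl1, against 71.2% for Ccl4 and 79.3% for Cxcl10. The median over the 7 tested chemokines was 71.2%, and over protein-coding genes that passed the same count filter it was 78.8%. Among such genes with at most 1000 exon bases it was 62.9% (232 genes). Replicate 3 was lowest for all 7 tested chemokines in each of the 3 quantifications. Xcl1 was above 3 counts there in the second and M4 tables, with 5 and 6 counts.

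**Figure D4:**
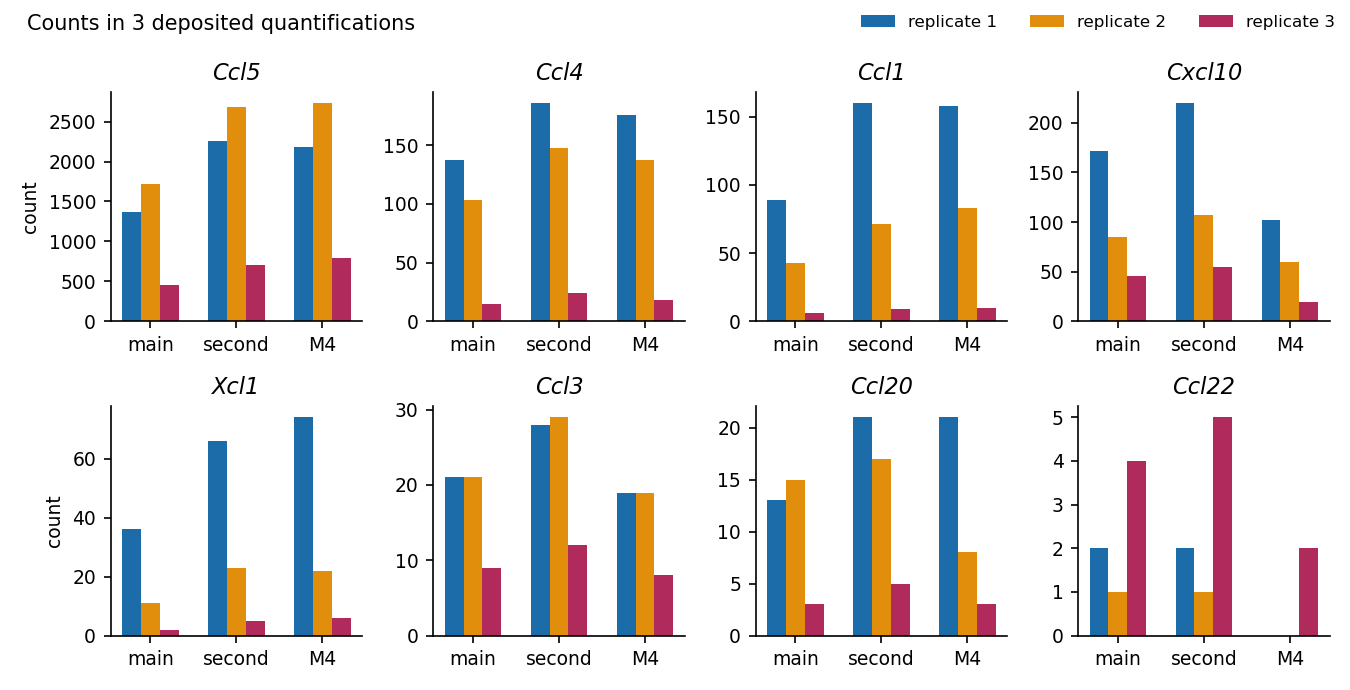
Counts of each chemokine gene in the main, second and M4 quantifications, with a bar per library and a vertical axis of its own from 0 for each gene. Replicate 3 has the shortest bar for every gene but Ccl22; its counts are not scaled for the lower depth of that library.

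The sequence upstream of the start site was available for 6 of the 8 genes in RefSeq (GRCm38.p6): Ccl1, Ccl3, Ccl20, Ccl22, Cxcl10 and Xcl1. The 250 bases before the start were searched on both strands for the NF-kappaB consensus, the AP-1 motif TGANTCA, the interferon-stimulated response element, the STAT motif TTCNNNGAA and the TATA box TATAAA. The windows of Cxcl10 and Ccl20 are shown because they held a match, with matched bases in capitals. Cxcl10 lies at chr5:92348890-92349139 on the minus strand and Ccl20 at chr1:83116516-83116765 on the plus strand.
Cxcl10: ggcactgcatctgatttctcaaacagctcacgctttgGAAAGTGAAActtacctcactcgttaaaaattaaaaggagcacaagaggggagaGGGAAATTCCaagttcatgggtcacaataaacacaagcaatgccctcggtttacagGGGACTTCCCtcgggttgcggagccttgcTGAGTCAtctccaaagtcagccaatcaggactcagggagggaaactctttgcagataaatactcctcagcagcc
Ccl20: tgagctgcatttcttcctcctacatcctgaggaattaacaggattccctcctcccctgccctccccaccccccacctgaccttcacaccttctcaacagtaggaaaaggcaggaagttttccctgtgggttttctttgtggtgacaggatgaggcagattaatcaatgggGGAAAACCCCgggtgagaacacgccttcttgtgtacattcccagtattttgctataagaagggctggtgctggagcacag
In the Cxcl10 window the interferon-stimulated response element GAAAGTGAAA began 213 bases before the start, NF-kappaB matches began at 159 (GGGAAATTCC) and 103 (GGGACTTCCC), and the AP-1 match TGAGTCA at 74. In the Ccl20 window an NF-kappaB match, GGAAAACCCC on the strand shown, began 80 bases before the start. No motif overlapped another. Over 27025 windows of the same length, 3.75% held the NF-kappaB consensus, 6.87% the AP-1 motif, 3.04% the interferon-stimulated response element, 7.18% the STAT motif and 13.0% the TATA box. The windows of Ccl1, Ccl3, Ccl22 and Xcl1 held none of these letters. The start used is that of RefSeq, which can differ from the M21 start. The Ccl22 window, from 94745434 to 94745683 on chromosome 8, runs past the M21 start of the gene at 94745590. A match is a string of letters and not a measured binding site.

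Genes with levels most like those of the 3 highest chemokines were found by the Euclidean distance of log2(TPM + 1) over the 3 libraries, among protein-coding genes with a mean of at least 10 counts. Nearest to Ccl5 were Cd5 (distance 0.443), Anxa6 (0.448) and Cd82 (0.485), and Cd5 had 378, 516 and 267 TPM in replicates 1, 2 and 3. Nearest to Ccl4 were Oas1a (0.278), Asb2 (0.337) and Pigc (0.430), and Oas1a had 37.9, 27.4 and 6.11 TPM. Nearest to Ccl1 were Xlr3b (0.518), Ifi214 (0.606) and Uros (0.643). These are likenesses in level over 3 libraries of 1 animal.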

How the data were processed

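The authors deposited, per the file headers, expected counts and TPM per gene and transcript on release M21 and mm10, with the percent of each gene taken by each transcript. The files accompanying them state that these came from transcriptome alignments, that a second transcript table of estimated counts and TPM came from the read files, and that whole-number counts on release M4 came from an alignment. The sources used here do not name the programs, and libraries were deposited unscaled.

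Symbols came from the second transcript table, and 22195 of 22457 M4 genes (98.8%) matched M21 by ID. Entries outside mouse genes held 0.113%, 0.166% and 0.0873% of expected counts and were left out. At a one-sided 95% limit a count of 0 allows up to about 3 counts, or 0.273, 0.309 and 0.450 CPM in replicates 1, 2 and 3. Without molecular identifiers reads are not separate molecules, so floors and intervals hold for counting error alone.

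Expected counts were rounded and tested per gene with a chi-square test on 2 degrees of freedom against TMM sizes (edgeR 4.0.16, scipy 1.17.1), with Benjamini-Hochberg adjustment, and tested on simulated data. edgeR's trended dispersion and DESeq2 1.42.0 size factors were alternatives. M4 counts were divided by coding bases and scaled as TPM is. All 8 chemokines were named. From other lists the rule took at most 6 chemokines, every receptor, the 4 highest and lowest regulators (a receptor, a regulator and a sequence are not reported here), and 3 most alike genes. Eomes, Xcr1, Pf4 and Ppbp stand in a marker list and another list. Members and lists were chosen with earlier results of these data known. Every comparison of libraries used the 3 of the only group.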

Additional observations from a re-analysis of the deposited data

How the results depend on the processing

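Low counts limit what can be said of Ccl22, Ccl20 and Xcl1, which fell to 3 counts or fewer in at least 1 library. With at least 10 expected counts required in every library, 3 chemokines were detected in place of 5. Other chemokine genes detected numbered 9 in the second quantification, against 3. With the trended dispersion of edgeR, 0 chemokines and 141 of all tested genes varied, in place of 5 and 8496. Leaving out 1 library gave 3 (without replicate 1) to 5 varying chemokines, 4224 (without replicate 3) to 6953 varying genes, 5 to 7 detected chemokines, 3 to 5 (without replicate 2) other chemokine genes, and 2 to 4 (without replicate 3) neighbouring pairs with separate ranges. The median level of the 8 chemokines, 9.80 TPM, was 6.83 to 12.4 TPM with 1 library left out, 6.21 TPM in the second quantification and 15.4 TPM from M4 counts per coding base. Size factors of DESeq2, total counts and a mean of at least 1 count each left 5 chemokines varying. M4 counts gave 6, with Ccl20 at an adjusted chi-square p of 0.0105. The highest library of Ccl20 was replicate 2 in the main table (13 and 15 counts in replicates 1 and 2) but replicate 1 in the second table (21 and 17 counts) and in M4 counts (21 and 8). No paired analysis was possible because all libraries belong to 1 group. The count of chemokines lowest in replicate 3 and its alternatives were chosen after seeing the data. The cause of these changes was not tested.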

Other observations

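Regulators of chemokine transcription and mRNA decay were present in the same RNA. All 13 genes counted from that list were above 3 expected counts in every library, and their median mean level was 75.3 TPM, against 9.80 TPM for the 8 chemokines. The highest of them were Irf1, an interferon-induced transcription factor, with 241, 254 and 167 TPM in replicates 1, 2 and 3, Klf13, known as a regulator of Ccl5 in T cells, with 120.1, 149 and 160 TPM, and Zfp36l1, with 141, 118 and 108 TPM. The lowest were Irf4 at 17.1 ± 1.98 TPM (SD, n = 3), Runx3 at 12.3 ± 2.29 TPM, Tbx21, the Th1 factor, at 4.38 ± 1.27 TPM, and Eomes at 0.253 ± 0.0551 TPM. By the chi-square test, which calls smaller differences at higher counts, 12 of 12 tested varied beyond sampling noise, against 65.4% of all tested genes. Under the trended edgeR model 1 did, against 1.08% of all tested genes: Zfp36l2, which encodes a protein that promotes decay of mRNAs with AU-rich elements. Its values were 24.5, 21.04 and 98.4 TPM, highest in replicate 3, where 7 of the 7 tested chemokines were lowest, and its adjusted p by that model was 2.16e-06. The family members Zfp36l1, by the values above, and Zfp36, at 98.0, 154.9 and 97.3 TPM, were lowest in replicate 3. Zfp36l2 and Zfp36 are outside the naming rule and were picked after their values were seen. No relation between these genes and the chemokines can be tested over 3 libraries.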
